A study of Mus musculus with 62 samples.

Results

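Broad H3K27ac domains are long stretches of chromatin in which histone H3 carries acetylation of lysine 27. They were examined in 4 mouse muscles, namely the quadriceps (Quad) and extensor digitorum longus (EDL) of the limb, the diaphragm (Dia) and the soleus (Sol). A domain was chosen by the width of its H3K27ac peaks: every peak of at least 10 kb (10000 bp) in any of the 4 muscles was taken, and peaks that shared at least 1 bp were merged across muscles. The 2300 broad peaks merged into 1065 domains, set against 51590 merged H3K27ac regions of any width in the 4 muscles. A merged domain can be broken in a given muscle, and 603 of the 1065 held more than 1 Quad peak. The muscles came from wild-type, sedentary male C57BL/6 mice, with 2 ChIP-seq libraries per muscle and histone mark. A Quad sample was 1 muscle of 1 animal, while EDL, Sol and Dia samples were pooled from several animals. Quad was also taken from wild-type mice given running wheels (Ex) and their sedentary controls (Sed), and from sedentary mice with muscle overexpression of Pgc1a (mTg) and their wild-type littermates (Wt). The mTg transgene is driven by the muscle creatine kinase promoter, which is active in striated muscle, and Ex muscle was collected hours after the last bout of running. Every group has 2 libraries, so p-values measure only the spread between those samples. H3K27ac libraries had 11.7 to 24.2 M tags.

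H3K27ac is placed by the acetyltransferases p300 and CBP at active enhancers and promoters, and H3K4me2 marks both active and poised elements. Long acetylated stretches, of which those with strong coactivator signal are called super-enhancers, are known from many tissues to lie at genes that define the cell type. EDL and Quad of the mouse consist largely of fast, glycolytic fibres, Sol holds many slow, oxidative fibres, and Dia is a mixed muscle with high oxidative capacity. The Mediator subunit MED1, accessible DNA (ATAC-seq, in Quad) and H3K4me2 were measured apart from H3K27ac and played no part in choosing the domains. The libraries come from whole muscle, so fewer nuclei of a cell type and less acetylation per nucleus cannot be told apart.

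The DNA within the domains that was open in Quad is shown first, since it gives the sequence to which the values below refer. For Zbtb16, Lyl1, Hk2 and Tbc1d1, which are among the widest domains, the strongest ATAC peak is given. For Myoz1, Rusc2 and Sun2 it is a peak with a match to the consensus of MEF2, the myocyte enhancer factor, among the strongest such peaks away from start sites. Sequences are from the plus strand of the RefSeq GRCm38 (mm10) assembly. All are 194 bases long, and none overlaps an exon of a protein-coding gene. The Zbtb16 peak (chr9:48723724-48723917) lies in the Zbtb16 gene body, the Lyl1 peak (chr8:84735643-84735836) in the Nfix gene body and the Tbc1d1 peak (chr5:64197046-64197239) in the Tbc1d1 gene body. The Hk2 peak (chr6:82774461-82774654) is centred at position -103 from the Hk2 start site, that is, just upstream. The Myoz1 (chr14:20651803-20651996), Rusc2 (chr4:43399795-43399988) and Sun2 (chr15:79735470-79735663) peaks lie in the bodies of those genes, outside exons. Capitals mark matches, on either strand, to the consensus of MEF2, the E-box CAGCTG bound by MyoD-type factors, the nuclear receptor half-site AGGTCA, the TEAD motif GGAATG or the AP-1 motif TGANTCA. No match was found in the Zbtb16 and Hk2 sequences for these motifs, which says only that those letters are not in these windows.
Zbtb16: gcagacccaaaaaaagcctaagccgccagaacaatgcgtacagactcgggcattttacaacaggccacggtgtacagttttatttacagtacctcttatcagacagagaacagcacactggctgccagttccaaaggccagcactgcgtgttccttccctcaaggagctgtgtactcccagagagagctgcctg
Lyl1: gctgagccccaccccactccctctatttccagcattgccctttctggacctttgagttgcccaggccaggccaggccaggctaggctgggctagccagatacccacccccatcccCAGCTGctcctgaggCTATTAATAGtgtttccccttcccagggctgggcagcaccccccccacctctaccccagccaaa
Hk2: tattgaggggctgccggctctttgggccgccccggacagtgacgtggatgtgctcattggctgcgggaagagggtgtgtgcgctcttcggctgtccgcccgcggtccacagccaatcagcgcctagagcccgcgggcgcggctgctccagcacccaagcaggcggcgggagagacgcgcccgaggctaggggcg
Tbc1d1: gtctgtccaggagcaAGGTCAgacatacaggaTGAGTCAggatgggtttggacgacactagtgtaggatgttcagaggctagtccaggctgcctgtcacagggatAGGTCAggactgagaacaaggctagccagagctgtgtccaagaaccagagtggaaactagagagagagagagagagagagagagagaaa
Myoz1: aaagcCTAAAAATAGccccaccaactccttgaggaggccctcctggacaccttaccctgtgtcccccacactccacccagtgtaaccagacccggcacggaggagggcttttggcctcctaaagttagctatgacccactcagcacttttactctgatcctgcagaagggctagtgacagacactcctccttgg
Rusc2: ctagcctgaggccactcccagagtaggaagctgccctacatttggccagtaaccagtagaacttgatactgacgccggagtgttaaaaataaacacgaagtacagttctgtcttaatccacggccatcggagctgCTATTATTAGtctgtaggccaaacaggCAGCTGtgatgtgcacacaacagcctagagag
Sun2: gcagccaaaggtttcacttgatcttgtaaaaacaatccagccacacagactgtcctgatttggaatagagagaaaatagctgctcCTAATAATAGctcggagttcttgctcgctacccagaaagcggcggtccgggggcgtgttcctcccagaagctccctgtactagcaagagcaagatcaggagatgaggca

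Motif shares were counted over ATAC peaks of equal length. The domains held 2686 of the 44909 ATAC peaks, and both strands were searched. The MEF2 consensus was in 3.72% of them (100 peaks), against 2.52% of ATAC peaks in other Quad H3K27ac peaks, 1.15% of those outside H3K27ac and 2.07% of all ATAC peaks. Away from protein-coding start sites by more than 1000 bp, the shares were 4.09% in domains and 3.43% in other H3K27ac peaks. The E-box was in 24.4% of ATAC peaks in domains and 21.01% of all, the half-site in 19.7% and 15.9%, the TEAD motif in 13.3% and 11.5%, and the AP-1 motif in 10.3% and 10.2%. Away from start sites, the E-box was in 25.7% of ATAC peaks in domains and 24.9% of those in other H3K27ac peaks, and the AP-1 motif in 11.2% and 13.2%. In the same comparison the half-site was in 21.3% and 19.8%, and the TEAD motif in 13.9% and 13.0%. The consensus of SRF, which drives actin genes, was in 1.94% against 1.08%, and the full NFI palindrome in 1 peak of the domains. The Lyl1 sequence above carries an E-box and a MEF2 match, and the Tbc1d1 sequence 2 half-sites and an AP-1 match. ATAC peaks in domains also had more tags, with a median of 11.9 normalised tags against 7.15 over all, and a median GC content of 54.6% against 53.1%. These shares are descriptions, and no test accompanies them.

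EDL had the most broad peaks and Dia the fewest. In EDL, 795 of 35750 peaks (2.22%) reached 10 kb, in Quad 553 of 40949 (1.35%), in Sol 529 of 34173 (1.55%) and in Dia 423 of 33106 (1.28%). They held between 7.49% (Dia) and 12.3% (EDL) of all bases under H3K27ac peaks, although the median peak was 1552 to 1890 bp wide. By the headers of the peak lists, EDL had 19.8 and 21.6 M tags, Quad 24.2 and 15.3 M, Sol 20.3 and 19.8 M, and Dia 21.5 and 19.2 M, and the part of depth in these counts was not tested. The study's own read table gives the totals of the second Dia H3K27ac and H3K4me2 libraries the other way round, so the depth of that library is uncertain. Just inside the threshold lay peaks near Rcc2 in EDL (10004 bp), AW112010 in Quad (10002 bp), Copg1 in Sol (10004 bp) and Wbscr17 in Dia (10004 bp). Just outside lay peaks near Tsc22d3 in EDL (9998 bp), Tef in Quad (9999 bp), Rab12 in Sol (9990 bp) and BC037032 in Dia (9998 bp). The merged domains covered 16.1 Mb, or 11.7% of the union of H3K27ac regions, with a median width of 13197 bp. Of the 1065, 143 were at least 20 kb wide and 32 at least 30 kb.

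Most domains were broad in some muscles and narrower in the others. In all 4 muscles 198 domains (18.6%) held a broad peak, in 3 muscles 167, in 2 muscles 253 and in 1 muscle 447 (42.0%). EDL alone accounted for 221, Sol alone for 97, Quad alone for 76 and Dia alone for 53. Among pairs, EDL with Quad held 113 and Sol with Dia 20. The median width was 18670 bp for domains broad in all 4 and 11412 bp for those broad in 1, and a union of several broad peaks is wider than 1 peak by construction. A domain that was broad in 1 muscle was rarely without acetylation elsewhere: of the 221 EDL domains, Quad lacked a peak at 0, Sol at 1 and Dia at 2, and H3K27ac peaks of Quad, Sol and Dia covered 76.2%, 68.8% and 64.9% of their bases. The plot of domains by combination of muscles shows these counts.

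**Figure D1:**
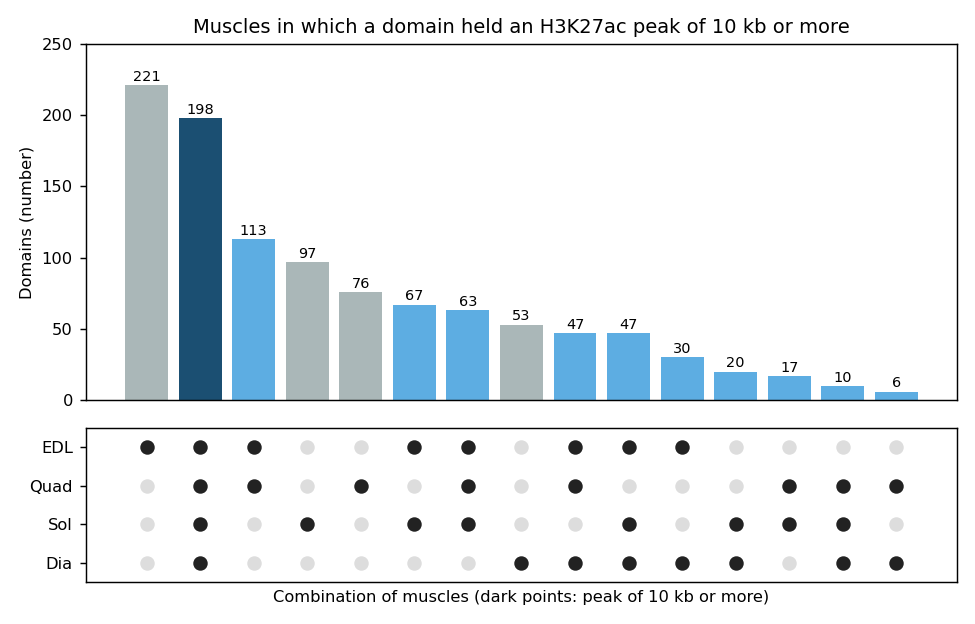
Number of merged H3K27ac domains (vertical axis) for each combination of muscles that held a peak of 10 kb or more there (dark points under each bar). The tallest bars are the 221 domains broad in EDL alone and the 198 broad in all 4 muscles.

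The widest domain of all lay in Zbtb16, which encodes the transcription factor PLZF. It spanned chr9:48704299-48780838 of mm10 (76540 bp), all of it within the Zbtb16 gene body (42.1% of that gene), almost wholly intronic and away from its start site. Its widest peak measured 76277 bp in EDL, 42456 in Quad, 49494 in Dia and 51717 in Sol. The log2 level per kb, which is normalised within each list only, was 8.30 and 8.12 in the EDL libraries, 8.12 and 8.34 in Quad, 8.62 and 8.32 in Dia, and 7.97 and 7.80 in Sol. Levels of separate lists are given side by side only, and no test was made between them. In Sed the widest peak was 63604 bp, in Wt 39630, in mTg 33501 and in Ex 23197. H3K4me2 lay over 39.3% of the domain in EDL but 12.9% in Quad, 10.7% in Dia and 10.5% in Sol, and 11 ATAC peaks lay inside it.

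A pair of other wide domains sat over genes of the nuclear factor I family, transcription factors that include Nfix, a regulator of the switch from fetal to postnatal muscle genes. The domain named for Lyl1 (chr8:84697996-84747587, 49592 bp) lay with 96.2% of its bases in the Nfix gene body. Its widest peak measured 46551 bp in Dia, 31691 in Sol, 30323 in EDL and 16540 in Quad. The domain named for Mir1191b (chr10:81401063-81436428, 35366 bp) lay wholly in the Nfic gene body. It was of even width, 28710 to 34841 bp over the 4 muscles and 29743 to 32263 bp over Sed, Ex, Wt and mTg. The nearest gene of the deposited annotation thus differs at times from the gene that holds the domain: E030018B13Rik (chr7:63892867-63940642, 47776 bp) lay 96.4% in Klf13, and Gm5069 (chr1:180382131-180411616, 29486 bp) wholly in Itpkb, an inositol trisphosphate kinase gene.

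The 10 domains with the largest summed width over the 4 muscles also included genes of metabolism and contraction. Hk2 encodes hexokinase 2, which traps glucose in the fibre. Its domain (chr6:82744504-82775961, 31458 bp) contained the start site and 60.6% of the gene body. The peak measured 29380 bp in EDL, 29003 in Quad, 31309 in Dia and 30729 in Sol, so the width hardly varied among muscles, and it was 30758 bp in Sed, 29012 in Wt, 28288 in mTg and 15531 in Ex. Coq8a encodes a kinase-like protein needed for coenzyme Q synthesis. Its domain (chr1:180168497-180197711, 29215 bp) was 26724 to 29215 bp wide over the 4 muscles, and H3K4me2 covered 72.5% to 80.7% of it. Ppp1r12b encodes a subunit of myosin phosphatase. Its domain (chr1:134905558-134944496, 38939 bp) was over 32 kb wide in EDL, Sol and Dia (38193, 36703 and 32426 bp) and 16081 bp wide in Quad, and lay inside the gene without its start site. Mir1a-1hg hosts miR-1, a microRNA specific to heart and skeletal muscle. Its domain (chr2:180356134-180399945, 43812 bp) held peaks of 41660 bp in EDL and 39778 in Quad against 14600 in Sol and 15866 in Dia, and overlapped no protein-coding gene. Tob2 encodes an antiproliferative protein. Its domain (chr15:81826927-81862814, 35888 bp) was narrowest in Sol, at 14394 bp.

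**Figure D2:**
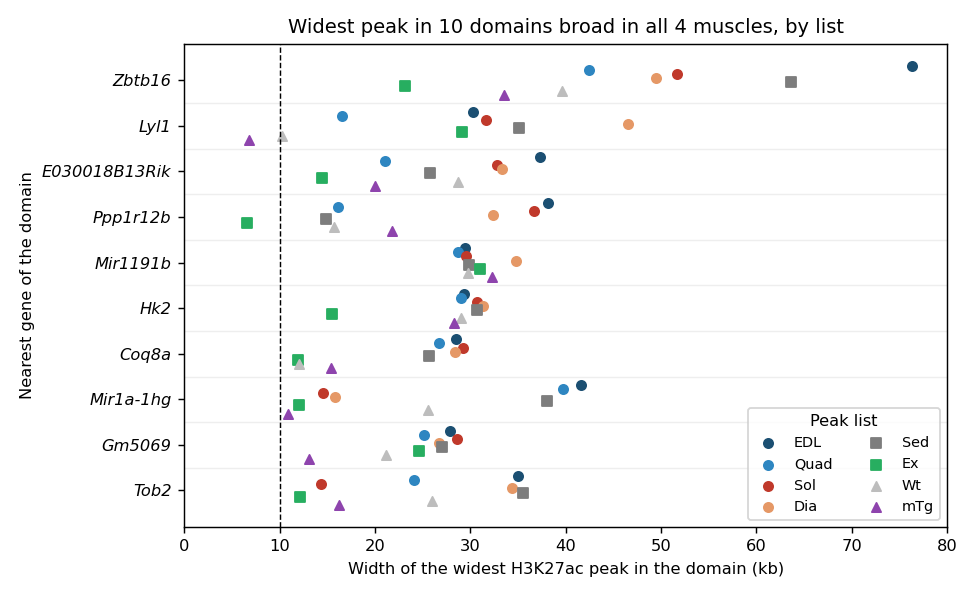
Width in kb of the widest H3K27ac peak (horizontal axis) in each of the 10 domains broad in all 4 muscles with the largest summed width (vertical axis), one point per peak list, with the 10 kb threshold dashed. Zbtb16 reaches 76277 bp in EDL, and at Hk2 the Ex point (15531 bp) lies apart from the points of the other lists (28288 to 31309 bp).

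Domains broad in both fast limb muscles but not in Sol or Dia included regulators of glucose uptake and fast myosin. Tbc1d1, a Rab GTPase-activating protein of glucose transporter traffic, held a domain of 29116 bp (chr5:64174903-64204018). The widest peak there was 29116 bp in EDL and 15108 in Quad, against 2326 in Dia and 5083 in Sol. At Mylk4, a myosin light chain kinase gene, the domain (chr13:32773721-32797944, 24224 bp) spanned the start site, with peaks of 22297 bp in EDL, 23421 in Quad, 7323 in Dia and 6707 in Sol. Mir7687 lay in Gse1, with 23926 bp in EDL, 11276 in Quad, 5213 in Dia and 7131 in Sol. H3K4me2, which the choice did not use, was likewise higher in EDL and Quad than in Sol and Dia over the 113 domains. It covered 57.1% of their bases in EDL and 56.2% in Quad but 32.7% in Sol and 30.4% in Dia. In the 198 shared domains the corresponding shares were 63.4%, 57.7%, 52.3% and 44.7%.

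Domains broad in Sol and Dia only were fewer and differed less in H3K4me2. Over the 20 domains it covered 42.2% of bases in EDL, 38.9% in Quad, 31.9% in Dia and 40.7% in Sol. The widest were near Tomm20, a subunit of the mitochondrial import receptor (peaks of 11057 bp in Sol and 16269 in Dia), Raph1 (18076 and 13368) and Smad7, an inhibitor of TGF-beta signalling (14931 and 10410). At Raph1 the EDL peak was 7035 bp and the Quad peak 1685 bp. The Tomm20 and Raph1 domains overlapped no protein-coding gene.

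Among domains broad in a single muscle, the widest Dia domains were at Ucp3, a mitochondrial carrier induced by fatty acids (16735 bp, against 6271 to 9892 in the others), Fabp3, the muscle fatty acid binding protein (15984 bp, against 7703 to 9731), and Wt1. The Ucp3 peak was also broad in other Quad lists, at 15345 bp in Wt and 16980 bp in mTg, but not in Sed (7296 bp) or Ex (5889 bp). Wt1, a transcription factor of mesothelium and kidney, had a peak of 15958 bp in Dia and no H3K27ac peak in EDL, Quad or Sol, nor in the other Quad lists. Over the Wt1 domain H3K4me2 covered 52.5% of bases in Dia and 12.2% to 18.5% in the others. Sol alone was broad at Ampd3, an AMP deaminase (20899 bp), Ppargc1b, which encodes the coactivator Pgc1b (19398 bp), and Fam179a (18031 bp, in Togaram2). Quad alone was broad at Mtss1 (19889 bp), Orai1, the pore of store-operated calcium entry (17822 bp), and Tmx1 (16399 bp). In Sed and Wt, which are also untreated Quad, Mtss1 was not broad, with widest peaks of 5674 and 4582 bp. There Orai1 had 16795 and 15712 bp, and Tmx1 14331 and 13168 bp. EDL alone was broad at Rab12 (21376 bp), Gm16907 (21059 bp) and Akt2, the insulin-responsive kinase (20300 bp). In the other untreated Quad lists, Rab12 was broad in Sed (13352 bp) and Gm16907 in Wt (12210 bp). Akt2 was broad in neither (8611 bp in Sed, 6569 bp in Wt). The Sol peak at Rab12, at 9990 bp, missed the threshold by 10 bp, so membership in a class can hang on the width limit.

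Gene lists were read against the 15883 nearest genes of any H3K27ac peak in the 4 muscles, of which 6.04% were also the nearest gene of a peak in a domain. Every list with a domain lay above that share, marker lists of other cells included, and no test was made. The share with a broad peak also differed by muscle over all genes, at 5.2% in EDL, 3.6% in Quad, 2.98% in Dia and 3.57% in Sol, so a higher count in EDL is not particular to a list. Of contractile and Z-disc genes 30 of 54 had a domain, 24 of them in EDL, 15 in Quad, 14 in Dia and 16 in Sol, and 7 in all 4. Tnnt3, fast troponin T, was the widest (35073 bp), with 34536 bp in EDL, 33050 in Quad, 13973 in Dia and 19496 in Sol. Among the myosin heavy chains, Myh4, the fastest isoform, had 15576 bp in EDL and 11638 in Quad against 501 in Sol and 4756 in Dia. Myh2 was broad only in Sol (10363 bp) and Myh1 in EDL (11711 bp) and Dia (11173 bp). Calcium handling genes counted 9 of 23, led by Srl (31495 bp), which encodes sarcalumenin of the sarcoplasmic reticulum, and Jph2 (27593 bp). Glycogen, glycolysis and creatine kinase genes counted 15 of 31, of which 13 were broad in EDL, 10 in Quad, 7 in Dia and 5 in Sol. Pfkm, muscle phosphofructokinase, had 28574 bp in EDL and 12645 to 15330 bp in the others. Fatty acid genes counted 7 of 26, and all 7 were broad in Dia against 3 in EDL, 2 in Sol and 1 in Quad. Cd36, the fatty acid translocase, had 3 domains, of which the widest held peaks of 15979 bp in Dia and 5676 in EDL, and Hadhb 13241 bp in Dia against 2731 to 4436 elsewhere.

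Regulators had domains too. Muscle transcription factors had 13 of 43 measured genes with a domain, 5 of them in all 4 muscles, led by Nfix (38888 bp), Hdac4 (23326 bp), a corepressor of MEF2, and Mef2d (22595 bp). Nuclear receptors and coactivators had 10 of 32, among them Nr4a1 (34239 bp), an orphan receptor induced by contraction, and Thra (19487 bp), the thyroid hormone receptor alpha. These widths are of merged domains. Over the 4 muscles the widest single peak was 31798 bp (Sol) in the Nfix domain and 19670 bp (EDL) in the Nr4a1 domain. Ppargc1a held 10434 to 13435 bp in all 4 muscles. Growth, atrophy and turnover genes had 13 of 28, with Usp2 (25324 bp) between 24310 and 25324 bp in every muscle and the ubiquitin ligase Trim63 (18393 bp) broad in EDL, Quad and Dia but 4629 bp in Sol. Immediate early genes had 7 of 25, led by Klf9 (23986 bp), and circadian clock genes 6 of 18, among them Bhlhe41 (17804 bp).

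Other cell types were checked by their own markers. Endothelial genes had 7 of 20 with a domain, 6 of them in EDL and 6 in Dia, such as Pecam1 (23623 bp in EDL, 5665 in Quad) and Egfl7 (21002 bp in Sol). Fibroblast and matrix genes had 6 of 18, 5 of them in EDL, and none was broad in all 4 muscles. Satellite cell genes had 2 of 7 and adipocyte genes 1 of 5 (Fabp4, in Dia). Leukocyte and macrophage genes had 0 of 13 and smooth muscle genes 0 of 9. Housekeeping genes had 3 of 11, of which Malat1 and Neat1 share 1 domain of 37474 bp. Fibroblast and matrix genes counted 5 in EDL, 2 in Quad, 1 in Dia and 1 in Sol, and EDL also had the most broad peaks of all. These counts are small, and the part of such cells in the muscle differences was not tested.

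By position, domains lay mostly inside genes. Protein-coding gene bodies held 74.1% of domain bases and 62.8% of the bases of other H3K27ac regions, and exons 5.79% and 6.85%. A protein-coding start site lay in 447 of the 1065 domains (42.0%) and in 18.8% of other regions. Per 100 kb there were 3.33 start sites in domains and 8.89 in other regions, so start sites were less dense in domains although more domains held one. There were 139 domains that touched no protein-coding gene body.

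Broad peaks held accessible DNA and MED1 more often than narrower peaks did, but per Mb their densities were lower or nearly equal. Of the 553 broad Quad peaks, 544 (98.4%, 95% Wilson interval 96.9% to 99.1%) held an ATAC peak, with a median of 2 and at most 7. Among Quad peaks under 10 kb the share was 56.7%. Per Mb there were 183 ATAC peaks in broad Quad peaks, 216 in peaks of 5 to 10 kb, 312 at 2 to 5 kb and 397 under 2 kb. A MED1 peak of the same muscle lay in 343 of the 2300 broad peaks (14.9%, 13.5% to 16.4%). By muscle this was 6.16% of EDL, 22.97% of Quad, 16.8% of Sol and 18.4% of Dia peaks, against 1.01%, 3.5%, 5.16% and 3.97% of narrower peaks. The MED1 lists held 834, 3593, 4070 and 2145 peaks in that order, from 1 library each. Per Mb, broad and narrower peaks held 4.44 and 4.49 MED1 peaks in EDL, 18.7 and 18.0 in Quad, 14.7 and 18.2 in Dia, and 13.6 and 23.8 in Sol. NFAT peaks in Sol lay in 15.9% of broad and 2.81% of narrower Sol peaks, with equal density (12.8 and 12.8 per Mb). In Quad, NFAT peaks lay in 5 broad and 14 narrower peaks, or 0.646 and 0.171 per Mb. These intervals cover counting error only.

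H3K4me2 lay somewhat more over broad than over narrower H3K27ac peaks. In EDL it covered 60.2% of bases in broad and 56.3% in narrower peaks, in Quad 59.3% and 52.6%, in Sol 52.8% and 51.0%, and in Dia 49.3% and 47.2%. Over whole domains, each in the muscles where it was broad, the mean share was 51.3% ± 6.55 (SD over 4 muscles). H3K4me2 formed broad peaks of its own less often. There were 335 of at least 10 kb in EDL, 221 in Quad, 117 in Dia and 186 in Sol, and 214, 135, 67 and 98 of them overlapped a broad H3K27ac peak. Between 9 domains in Quad and 32 in Dia carried no H3K4me2 peak at all.

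How stable the breadth was is seen in Quad lists that the choice did not use. Of the 530 domains broad in Quad, 388 (73.2%) held a peak of at least 10 kb in Sed and 286 (54.0%) in Wt, which are both untreated Quad of wild-type mice. In Ex the number was 224 (42.3%) and in mTg 182 (34.3%). Over all peaks of a list, Sed had 675 of at least 10 kb, Ex 406, Wt 426 and mTg 257. The 3 untreated lists, Quad, Sed and Wt, thus ran from 426 to 675, a span close to the gap between Sed and Ex. Depth was highest in Sed (20.7 and 23.7 M tags) and lowest in mTg (11.7 and 12.7 M), as were the counts, while Ex (17.1 and 18.5 M) was deeper than Wt (14.1 and 14.9 M) but had fewer broad peaks. The part of depth was not tested. The authors called peaks on the replicates jointly, which leaves these counts without a replicate error.

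Within the domains the treated lists covered fewer bases. Over all 1065 domains, H3K27ac peaks covered 84.3% of bases in Sed and 70.2% in Ex, 77.7% in Wt and 68.9% in mTg. Ex covered less than Sed in 804 domains and more in 253, and mTg less than Wt in 758 and more in 304. The domains were also more often split, with 1.79 peaks per domain in Sed and 2.04 in Ex, and 2.34 in Wt and 2.42 in mTg. Narrower Quad peaks showed declines of similar size: Ex coverage was 0.864 times that of Sed over domains broad in Quad and 0.890 times over Quad peaks under 10 kb, and mTg coverage was 0.888 and 0.814 times that of Wt. In 237 domains both Sed and Ex held a broad peak, in 307 Sed alone and in 74 Ex alone. For Wt and mTg these were 164, 206 and 63.

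**Figure D3:**
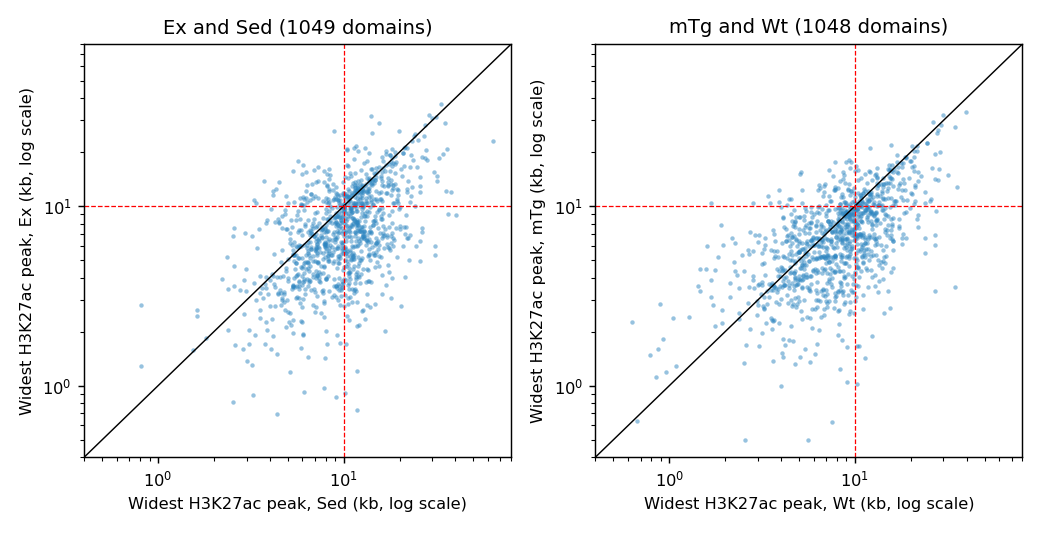
Widest H3K27ac peak of each domain in kb (log scales), Ex against Sed (left) and mTg against Wt (right) for domains with a peak in both, with the line of equal width in black and 10 kb dashed in red. More points lie below the line of equal width than above it in both panels.

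The regions whose acetylation the authors called different after exercise (exercise-modified regions, EMR) or with Pgc1a overexpression (Pgc1a-modified regions, PMR) met the domains unequally. Hypoacetylated EMR, lower in Ex, overlapped 172 domains (16.2%), against 4.28% of all merged H3K27ac regions. By bases they covered 10.6% of the domains and 4.76% of other regions. The share of bases rose with width, from 1.65% in regions under 2 kb to 4.76% at 2 to 5 kb and 8.11% at 5 to 10 kb. Hyperacetylated EMR overlapped 1 domain (0.0939%), against 0.521% of all regions, and covered 0.0186% and 0.317% of bases. Hyperacetylated PMR overlapped 37 domains (3.47%), against 2.71% of all regions, and hypoacetylated PMR 20 (1.88%), against 1.54%. By bases PMR were the scarcer in domains, at 1.45% against 2.15% of other regions for hyperacetylated and 0.679% against 1.27% for hypoacetylated PMR. Of the hypoacetylated EMR themselves 200 of 2280 overlapped a domain, and 112 domains had at least 50% of their bases under 1 or more of them together.

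The overlap depended on which muscles held the domain as broad, a feature taken from other libraries than those that defined EMR and PMR. Hypoacetylated EMR met 39 of the 113 domains broad in EDL and Quad only (34.5%) and 53 of the 221 broad in EDL alone (23.98%). They met 22 of the 198 shared by all 4 muscles (11.1%) and 4 of the 63 broad in EDL, Quad and Sol (6.35%). The shares did not simply follow breadth in the fast limb muscles. They were 12 of the 47 domains broad in EDL, Quad and Dia (25.5%) but 8 of the 76 broad in Quad alone (10.5%). Among Sol and Dia domains the share was 3 of 20 (15%), and among those of Sol alone 11 of 97 (11.3%). Hyperacetylated PMR met 0 of the 113 EDL and Quad domains, but 5 of the 20 Sol and Dia domains (25%), 5 of the 53 Dia domains (9.43%) and 8 of the 97 Sol domains (8.25%). Hypoacetylated PMR met 9 of the 113 EDL and Quad domains (7.96%), 1 of the 20 Sol and Dia domains (5%) and 1 of the 97 Sol domains (1.03%). They met 0 of the 198 shared domains and 0 of the 53 Dia domains. Domains broad in Quad and not broad in Quad met hypoacetylated EMR alike (16.4% and 15.9%), while hyperacetylated PMR met 1.13% and 5.79% of them. The groups are small, and no test of these shares was made.

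**Figure D4:**
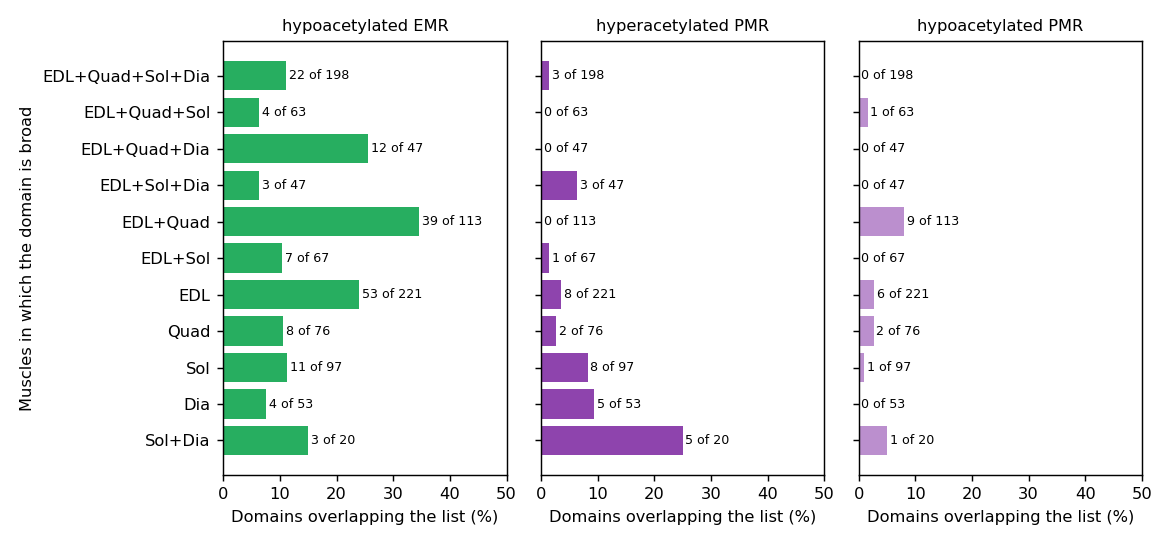
Percentage of domains that overlap a hypoacetylated EMR, a hyperacetylated PMR or a hypoacetylated PMR (horizontal axes), by the muscles in which the domain is broad (vertical axis), with counts beside the bars. EDL and Quad domains are highest for hypoacetylated EMR (39 of 113), Sol and Dia domains for hyperacetylated PMR (5 of 20).

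Within the 4 lists the 4 libraries were normalised together, so levels could be tested with limma over all regions of a list. Since the authors selected these regions for differing, 99.7% of hypoacetylated EMR passed a Benjamini-Hochberg adjusted p of 0.05, 99.7% of hyperacetylated EMR, 100% of hyperacetylated PMR and 100% of hypoacetylated PMR. All regions within domains passed too (200, 1, 44 and 26), which adds no independent evidence. The median log2 difference was farther from 0 in domains than over the whole list, at -0.85 against -0.76 for hypoacetylated EMR, 0.86 against 0.74 for hyperacetylated PMR and -0.82 against -0.63 for hypoacetylated PMR. Regions in domains also had higher levels, with median log2 levels of 9.36 against 7.06, 7.54 against 6.00 and 7.32 against 5.67 in that order. The part of level in the larger differences was not tested.

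After exercise the strongest falls in domains lay at Asb5, a ubiquitin ligase subunit, Ttc7b, Clvs1 and Mylk4. The Asb5 region had log2 levels of 8.41 and 8.19 in Ex against 9.77 and 9.39 in Sed, a difference of -1.28 ± 0.215 (SE, limma adjusted p = 2.14e-06). A second domain near Asb5 fell by 1.25. At both, the widest peak shrank from Sed to Ex, from 9094 to 3596 bp and from 14831 to 2864 bp. The Mylk4 region, which took in the whole EDL and Quad domain described above and the edge of a second Mylk4 domain, had 10.7 and 10.5 in Ex against 11.9 and 11.5 in Sed, a fall by 1.11 ± 0.215. Ttc7b (-1.16) and Clvs1 (-1.14) followed, and in each of these regions both Ex libraries lay below both Sed libraries. Among gene list members, Myh4 (-1.08), Myom2, an M-band protein (-1.08), and Tead1 (-1.06) fell within domains. The SE was the same for all regions of this list, since limma's variance estimate was fully shared.

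With Pgc1a overexpression the strongest rises in domains were at Osbpl1a, Agpat2, Atp1b1, Pqlc1 and Lrtm1. Osbpl1a, which encodes an oxysterol binding protein, had 10.5 and 10.4 in mTg against 8.82 and 9.12 in Wt, a difference of 1.48 ± 0.130 (limma adjusted p = 9.04e-10). Agpat2, an enzyme of glycerolipid synthesis, had 9.74 and 9.87 against 8.51 and 8.31 (1.39 ± 0.127), and Atp1b1, the beta subunit of the sodium pump, 10.8 and 10.7 against 9.55 and 9.51 (1.21 ± 0.123). The difference was 1.21 at Pqlc1 and 1.19 at Lrtm1. At Lrtm1 the widest peak grew from 1683 bp in Wt to 10449 bp in mTg, and at Osbpl1a from 6845 to 12006 bp. The other rises included Cd36 (1.15), Coq8a (1.00), Fabp3 (0.99) and Acsl1, an acyl-CoA synthetase (0.96). Of these, Osbpl1a and Lrtm1 were broad in Sol and Dia and Agpat2 and Fabp3 in Dia, while Coq8a was broad in all 4 muscles.

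The strongest falls in mTg were at Ccl25, Mir582, Smox, Ext2 and Tpbgl. Ccl25 had 6.29 and 5.97 in mTg against 7.89 and 8.05 in Wt, a difference of -1.84 ± 0.135 (limma adjusted p = 1.85e-09). Mir582 had 8.63 and 8.25 against 10.1 and 10.3 (-1.80 ± 0.140), and its widest peak went from 12370 bp in Wt to 1887 bp in mTg. Smox, spermine oxidase, had 8.41 and 8.20 against 9.96 and 10.03 (-1.69 ± 0.128), Ext2 fell by 1.26 and Tpbgl by 1.19. There were 11 domains that met both a hypoacetylated EMR and a hypoacetylated PMR, among them those of Smox, Ttc7b, Camk2a, Prkag3, the fast-muscle subunit of AMP-activated kinase, and Jph1. Another 9 domains met both a hypoacetylated EMR and a hyperacetylated PMR, including Myh1 and Acacb. The 2 regions in a domain need not overlap each other. Of 1065 domains, 172 met a hypoacetylated EMR, 20 a hypoacetylated PMR and 37 a hyperacetylated PMR. Whether the 11 and 9 exceed the number that would coincide by chance was not tested. At Myh1 the level fell by 0.85 in Ex and rose by 0.91 in mTg, each against its own controls.

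**Figure D5:**
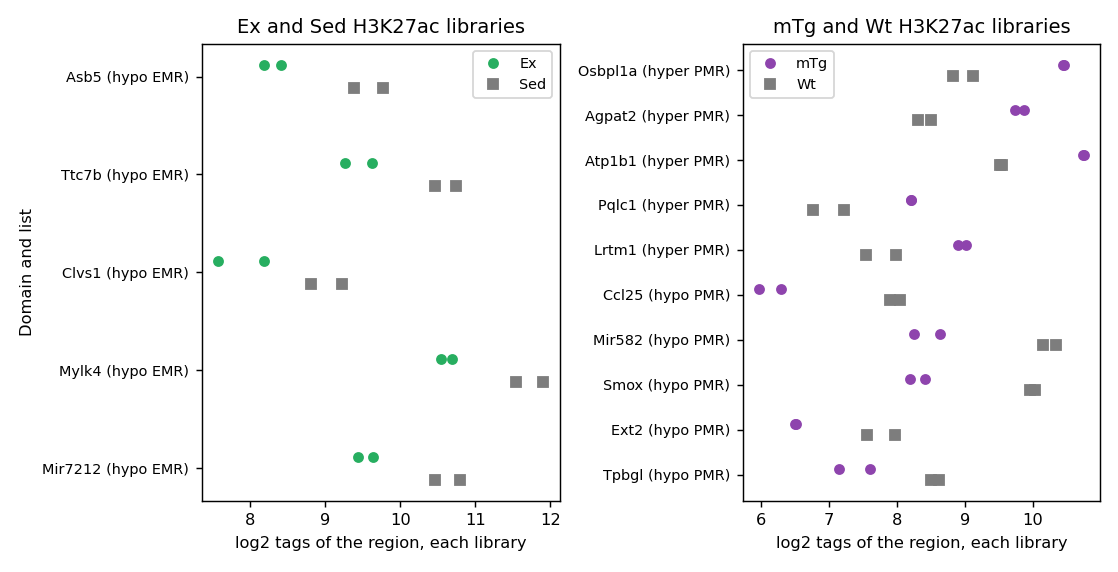
log2 H3K27ac tags of the called region in each library (horizontal axis) for the domains with the largest differences among hypoacetylated EMR, hyperacetylated PMR and hypoacetylated PMR (vertical axis). In every region shown, the 2 treated libraries do not overlap the 2 control libraries.

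Levels per kb in the separately normalised lists were set side by side for peaks matched at 50% reciprocal overlap. In Ex and Sed, 786 domains had a matched pair. Centred on all 18430 pairs, the median difference (Ex minus Sed) over domains was -0.25 log2 units, and 70.0% of domains lay below 0. More than 2-fold apart, with replicates not overlapping, were 49 domains lower and 0 higher in Ex, against 2.47% of all pairs lower and 0.7% higher. That count rested on single libraries: it was 13 without Sed replicate 1, 142 without Sed replicate 2, 103 without Ex replicate 1 and 22 without Ex replicate 2. The largest were Cradd (-1.54), Prune1 (-1.505), Cdca7 (-1.46), Slc16a10, an aromatic amino acid transporter (-1.31), and Lpin1, a phosphatidate phosphatase (-1.31). Widths of the matched peaks differed at Prune1 (6683 bp in Ex, 12001 bp in Sed) and Slc16a10 (8956 and 5617 bp). Over one region for both groups, in the hypoacetylated EMR list, the differences were smaller. They were -0.97 at Cradd, -0.81 at Cdca7 and -1.09 at Lpin1. At Cradd the centred Ex levels were 5.63 and 5.41 against 7.04 and 7.09 in Sed, with widths of 3683 and 3524 bp, so that the level differed where the width did not. In mTg and Wt, 831 domains had a pair, with a median difference of 0.06, 7 domains higher and 11 lower in mTg, against 2.18% and 2.46% of all pairs. The balance of directions turned on single libraries, with 14 of 19 domains lower without Wt replicate 1 and 8 of 20 lower without Wt replicate 2. Ppara, the fatty acid sensor (1.62), Pqlc1 (1.55), Ddi2 (-1.54), Dlgap4 (-1.36) and Cd36 (1.35) were farthest apart. At Ppara the centred mTg levels were 8.09 and 7.74 against 6.25 and 6.35 in Wt, but per kb of peaks of unequal width, 3301 bp in mTg and 6275 bp in Wt. Over the same region in both, in the hyperacetylated PMR list, the Ppara difference was 0.87 ± 0.129 (SE, limma adjusted p = 1.46e-06).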

How the data were processed

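H3K27ac, H3K4me2, MED1 and NFAT ChIP-seq and ATAC-seq peak files of mouse muscle were used. Per the labels' processing notes the authors used Bowtie 1.2 and HOMER, with mm10 and mm9 named as builds. The authors called histone peaks over both replicates of a group, at least 2-fold over input with an adjusted p-value under 0.05. The deposited levels are on a log2 scale, taken to be a regularized logarithm, and are normalised within each list only. The authors' peak lists also give the log2 fold of ChIP over input. MED1 and NFAT peaks carry the deposited HOMER score, from 1 library each, and ATAC peaks a deposited normalised tag signal. The differential lists hold only regions that the authors called different.

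Peaks of at least 10000 bp were merged across the 4 muscles when they shared 1 bp. Domains take the nearest gene of the deposited annotation. Dates that had replaced 519 gene names were turned back by Entrez ID (519 of 519). Overlap was counted in regions and in bases, since a wide region meets any list more often. Lists were compared per kb after matching peaks at 50% reciprocal overlap and centring on the median of all pairs, and a 2-fold difference without overlap of replicates was counted. Differences within a differential list were fitted over the whole list with limma 3.58.1 (R 4.3.3) and Benjamini-Hochberg adjustment at 0.05, other steps with Python 3.11.15, numpy 2.4.6 and pandas 2.3.3. Procedures were tested on simulated data. Shares have 95% Wilson intervals.

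The members, gene lists and tests were chosen with earlier results of these data known. Named are the 10 domains broad in all 4 muscles with the largest summed width, the 3 widest of each single muscle, of EDL with Quad and of Sol with Dia, up to 5 with the largest limma difference per differential list, gene list members, and the 5 farthest apart in matched level per comparison. The examples from gene lists were picked from among the members with a domain. The 18 columns of input and other tags were not used, nor were the interval files of ATAC categories and footprints, whose build may not be mm10. The region of 1 domain is counted but not reported here.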

Additional observations from a re-analysis of the deposited data

How the results depend on the processing

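Of 71 alternatives to the values given above, 46 stayed within 1.5 times or 1 spread of the value and 25 moved. The width minimum set the numbers by construction: a lower one gave 1867 domains and a higher one 588, of which 403 and 89 were broad in all 4 muscles, and joining peaks within 1000 bp first gave 334. With the lower and the higher minimum, 13.0% and 18.1% of broad peaks held a MED1 peak, 99.3% of Quad peaks past the higher one held an ATAC peak, and 288 and 99 domains met a hypoacetylated EMR. Hypoacetylated PMR met 40 and 10 of them, and hyperacetylated PMR 21 with the higher one. For Ex and Sed levels, 80% reciprocal overlap gave 19 domains and no centring 84, and leaving out 1 library 13 to 142. For mTg and Wt 80% overlap gave 8. Centring each library on the median of its list left 0, 0, 5 and 4 limma calls (hypoacetylated EMR, hyperacetylated EMR, hyperacetylated PMR, hypoacetylated PMR), since a list of one direction loses its shared difference by construction. Without 1 library the hyperacetylated EMR count was 0 to 1, at 0 without Sed replicate 1. With the replicate number as a block the counts were 200, 1, 44 and 26, as without it. Same-numbered libraries correlated by 0.106, 0.144, -0.0386 and -0.242 over these 4 lists. With 2 libraries per group, these values cannot tell whether same-numbered samples were paired. The 2 libraries per group limit every comparison, and depth fell from Sed to mTg.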

Other observations

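Domains that were broad in Dia alone included developmental regulators beside Wt1, and these were picked after their values were seen. At Hoxb4, a patterning gene, the widest peak was 13784 bp in Dia and 1625 to 2477 bp in EDL, Quad and Sol. Near Hoxaas2, in the Hoxa cluster, it was 15281 bp in Dia and 2733 to 6461 bp in the others. Meis1, a cofactor of Hox proteins, had 13730 bp in Dia and 2854 to 7395 bp in the others. Pax3, a regulator of muscle progenitors, had 10796 bp in Dia, 1403 bp in Quad and no peak in EDL or Sol. Hoxa9, in the same cluster, was the reverse, with 19084 bp in EDL, 19592 in Quad and 10702 in Sol against 1358 in Dia. In the 4 other Quad lists the Hoxa9 peak was 12362 to 19003 bp wide and the Hoxb4 peak 962 to 2606 bp.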
